A study of Mus musculus with 4 samples.

Results

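The plasminogen activators Plau and Plat, the urokinase receptor Plaur, tissue factor (F3) and Serpinf1 were examined in mouse embryonic fibroblasts that lack Men1, the gene of menin. They were taken by symbol, as every probe set to which the platform annotation gave exactly 1 gene symbol, that symbol being one of the 5. This gave 6 probe sets of the 12488 on the array, 2 of them for Serpinf1 and 1 for each of the others. The genes were chosen with their signals on these same arrays in view, so their differences by group and by replicate number are descriptions and are not tested as a set.

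All cells were Men1 knockout fibroblasts of a mixed FVB;129Sv background. In 2 samples the cells were complemented with Men1, and in the other 2 with vector, so that both groups carry the deletion. They were grown in medium with 10% serum, seeded at 70% density and harvested after 24 h. The labels do not say which promoter drove the returned Men1, whether lines were clonal, or whether replicates came from separate cultures, so the spread between arrays may be technical. Each group has an array numbered 1 and an array numbered 2 in its title, and what a number marks is not stated. The series sought genes downstream of menin.

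Urokinase (Plau) and tissue-type plasminogen activator (Plat) are secreted serine proteases that cut plasminogen into plasmin, which dissolves fibrin and helps to degrade matrix around migrating cells. Plaur is a lipid-anchored receptor that holds urokinase at the cell surface. F3 is the transmembrane receptor of coagulation factor VII and starts clotting where blood meets fibroblasts. Serpinf1, also called pigment epithelium-derived factor, is a secreted serpin that does not inhibit proteases and is known for blocking vessel growth.

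Promoter sequences are shown for F3, Plaur and Serpinf1, and none was available for Plau or Plat. The promoter table (RefSeq, GRCm38.p6) held 3 of the 5 genes, each as 300 bases from 250 before to 50 after the annotated start. Capitals mark the AP-1 motif TGANTCA, the letters bound by Fos and Jun dimers, which read alike on both strands. The F3 window is chr3:121723287-121723586 on the plus strand, the Plaur window chr7:24462233-24462532 on the plus strand and the Serpinf1 window chr11:75422574-75422873 on the minus strand.
F3: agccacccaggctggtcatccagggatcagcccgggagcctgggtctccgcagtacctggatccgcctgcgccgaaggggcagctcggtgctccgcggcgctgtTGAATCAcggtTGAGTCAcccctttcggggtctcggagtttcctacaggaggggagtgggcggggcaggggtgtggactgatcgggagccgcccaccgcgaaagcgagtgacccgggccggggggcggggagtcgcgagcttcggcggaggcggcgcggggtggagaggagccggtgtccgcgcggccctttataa
Plaur: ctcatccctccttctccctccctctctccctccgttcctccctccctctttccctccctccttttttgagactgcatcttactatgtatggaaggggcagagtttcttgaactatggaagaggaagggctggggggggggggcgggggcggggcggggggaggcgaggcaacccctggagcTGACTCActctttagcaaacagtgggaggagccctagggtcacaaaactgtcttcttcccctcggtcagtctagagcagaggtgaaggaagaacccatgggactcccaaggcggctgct
Serpinf1: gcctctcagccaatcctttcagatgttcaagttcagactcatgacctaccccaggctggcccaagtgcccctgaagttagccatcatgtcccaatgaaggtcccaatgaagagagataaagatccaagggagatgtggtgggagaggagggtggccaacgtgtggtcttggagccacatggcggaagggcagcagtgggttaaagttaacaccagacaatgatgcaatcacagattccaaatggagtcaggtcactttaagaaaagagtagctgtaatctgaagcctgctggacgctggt

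The F3 window held 2 AP-1 motifs, TGAATCA and TGAGTCA, which began 146 and 135 bases before the start and did not overlap. The Plaur window held 1, TGACTCA, beginning 69 bases before the start, and the Serpinf1 window held 0. Among all 32851 promoter windows, 7.81% held at least 1 such motif and 0.460% held 2 or more. GGGCGG, a core bound by Sp1, occurred 3 times in each of the F3 and Plaur windows, counted on both strands, and in 35.7% of all windows. The Egr motif GCGNGGGCG was found once in the Plaur window, where it overlapped 2 of the GGGCGG copies, and in 5.55% of all windows. Neither GGGCGG nor GCGNGGGCG was found in the Serpinf1 window. A match describes the letters and does not show that a factor was bound in these cells. Whether the motifs have a part in the differences between arrays was not tested.

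Signals are the deposited MAS5 values, a linear probe set intensity scaled over each array. Men1 itself, with 1 probe set, gave signals of 18.8 and 22.5 in cells with Men1 returned, against 18.1 and 29.5 in cells with vector. It does not check the labels, because it was dim and the place of the probe set relative to the deleted sequence is not known here. As a floor, 19 control probe sets, taken here as unspiked, reached at most 25.9 and 27.4 with Men1, against 15.9 and 20 with vector. The Men1 probe set was below the floor on both Men1-complemented arrays and above it on both vector arrays. Fibroblast markers were measured for 12 genes, with Col1a1, a chain of type I collagen, between 6057.4 and 7618.7, whereas Vim lay near the controls (24.2 to 37.5) and Thy1 at or below them on all 4 arrays. Of the markers of other cells, 4 of 6 endothelial, 3 of 6 blood and macrophage and 2 of 5 epithelial genes were at or below the controls throughout. Above the controls on all 4 arrays were 1 endothelial, 3 blood and macrophage and 2 epithelial genes. The epithelial ones were Cdh1 (93.7 to 165.2) and Krt19, at 67.2 to 146.5 in the brighter of its 2 probe sets. In bulk RNA, fewer cells that express a gene and less of its RNA per cell cannot be told apart.

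Differences are given on the log2(signal + 16) scale, Men1-complemented minus vector, with the standard error (SE) of a limma fit over all probe sets. The pseudocount of 16 understates the fold of dim probe sets. By limma with Benjamini-Hochberg adjustment, 0 of 12422 probe sets passed an adjusted p of 0.05, and 233 (1.88%) were at an unadjusted p under 0.05. All 6 probe sets had an adjusted p of 1.

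The groups separated for the brighter Serpinf1 probe set and for Plat, and not for Plau, Plaur or F3. Arrays of the 2 groups did not overlap for 2 of the 6 probe sets, and for 22.1% of all probe sets. Since the genes were chosen on these arrays, nothing is read from that count.

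Serpinf1 had the widest gap between the groups among the 5 genes. Its brighter probe set, the main one here, read 356.2 and 648.5 on Men1-complemented arrays 1 and 2, against 219.8 and 261.4 on vector arrays 1 and 2. Both Men1-complemented signals lay above both vector signals. Signals averaged 502 ± 207 with Men1 and 241 ± 29.4 with vector (SD, n = 2 each). The log2 difference was 0.96 (SE 0.32), or 1.94-fold on the scale with the pseudocount, and was 7th highest of 8251 genes when each gene was taken by its brightest probe set. It was 0.66 between the arrays numbered 1 and 1.26 between those numbered 2. Men1-complemented array 2 was the highest of the 4, and without it the difference was 0.54, whereas without array 1 of that group it was 1.38.

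The other, dim Serpinf1 probe set did not follow. It read 40.6 and 17.3 with Men1, against 30.0 and 56.1 with vector, so that the groups overlapped. The lowest of these signals, that of Men1-complemented array 2, was below the highest control on its array, and it came from the array on which the brighter probe set was highest. The log2 difference was -0.41 (SE 0.36), being 0.30 between the arrays numbered 1 and -1.11 between those numbered 2. The gene is therefore described by 1 bright probe set that separated the groups and 1 dim probe set that did not.

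Plat was lower with Men1 by a smaller and more even margin. Its probe set read 377.0 and 425.7 on Men1-complemented arrays 1 and 2, against 600.4 and 548.5 on vector arrays 1 and 2. Neither group reached into the other, and mean signals were 401 ± 34.4 with Men1 and 574 ± 36.7 with vector (SD, n = 2 each). The log2 difference was -0.50 (SE 0.18), ranking 215th from the lowest of 8251 genes. Between the arrays numbered 1 it was -0.65 and between those numbered 2 it was -0.35. Plau, which acts on the same substrate, gave overlapping groups.

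**Figure D1:**
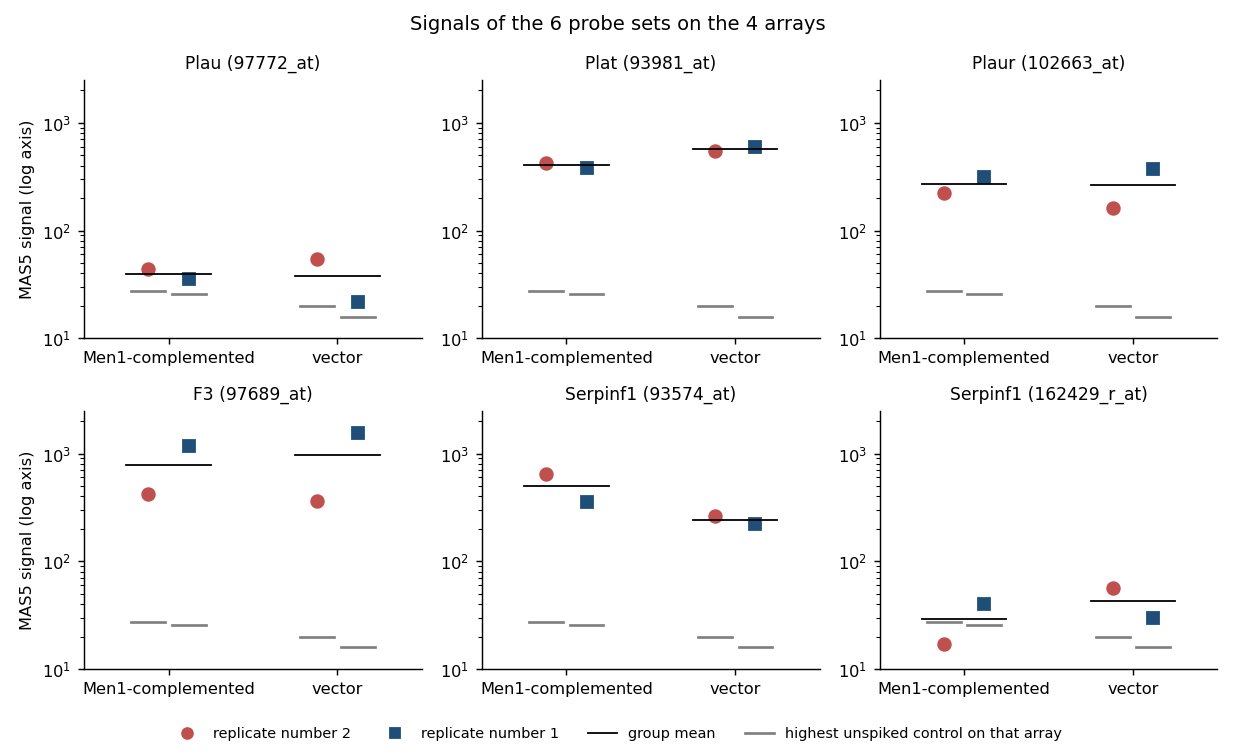
Signals of the 6 probe sets, with the MAS5 signal on a log axis and the 2 groups side by side, circles for arrays numbered 2, squares for arrays numbered 1, black lines for group means and grey lines for the highest unspiked control on each array. Plat (377.0 and 425.7 against 600.4 and 548.5) and the main Serpinf1 probe set separate the groups, whereas in F3 and Plaur the circles lie below the squares in both groups.

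F3 varied with the replicate number and hardly with the group. On the arrays numbered 2 it read 417.0 with Men1 and 364.6 with vector, against 1162.3 with Men1 and 1562.5 with vector on the arrays numbered 1. Both number 2 signals were far below both number 1 signals, whichever construct the cells carried. The log2 difference of number 2 minus number 1 was -1.75, which is 3.36-fold lower, and was -1.44 within the Men1-complemented group and -2.05 within the vector group. It was the 5th lowest difference by number of 8251 genes. By group the F3 difference was -0.12 (SE 0.82), with -0.42 between the arrays numbered 1 and 0.19 between those numbered 2. The group difference took either sign when arrays were left out singly, from -1.14 without vector array 2 to 0.91 without vector array 1.

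Plaur followed the same order of arrays with smaller steps. It read 223.2 with Men1 and 160.5 with vector on the arrays numbered 2, against 313.2 with Men1 and 370.6 with vector on those numbered 1. Again both number 2 arrays were below both number 1 arrays. Number 2 minus number 1 gave -0.80, with -0.46 within the Men1-complemented group and -1.13 within the vector group. The step was thus wider between the vector arrays for both receptors, although with 1 array for each combination this was not tested. By group, Plaur differed by 0.10 (SE 0.43), with -0.23 between the arrays numbered 1 and 0.44 between those numbered 2.

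Plau, the ligand of Plaur, was dim and went the other way. It read 44.3 with Men1 and 54.2 with vector on the arrays numbered 2, against 35.5 with Men1 and 21.6 with vector on those numbered 1. All 4 signals exceeded the highest control of their own array, the closest being 21.6 against 15.9. Number 2 minus number 1 was 0.56, made up of 0.23 within the Men1-complemented group and 0.90 within the vector group. The group difference was 0.12 (SE 0.34).

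Numbers did not overlap for these 3 probe sets of 6, and for 44.7% of all probe sets, with 28.7% higher and 16% lower on the arrays numbered 2. The median difference by number over all probe sets was 0.06 and the median absolute one 0.20, against -0.01 and 0.13 by group. Separation by number was therefore common on these arrays. For each probe set the sum of squares over the 4 arrays divides exactly into a part with group, a part with number and a remainder. Number took 96.6% for F3, 83.7% for Plaur and 71.5% for Plau, while group took 0.439%, 1.41% and 3.09%. Group took 91.9% for Plat and 70.9% for the main Serpinf1 probe set, where number took 0.158% and 22.1%. In the dim Serpinf1 probe set 74.7% went with neither. Over all probe sets the medians were 15.6% with group, 38.1% with number and 25.3% with neither.

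**Figure D2:**
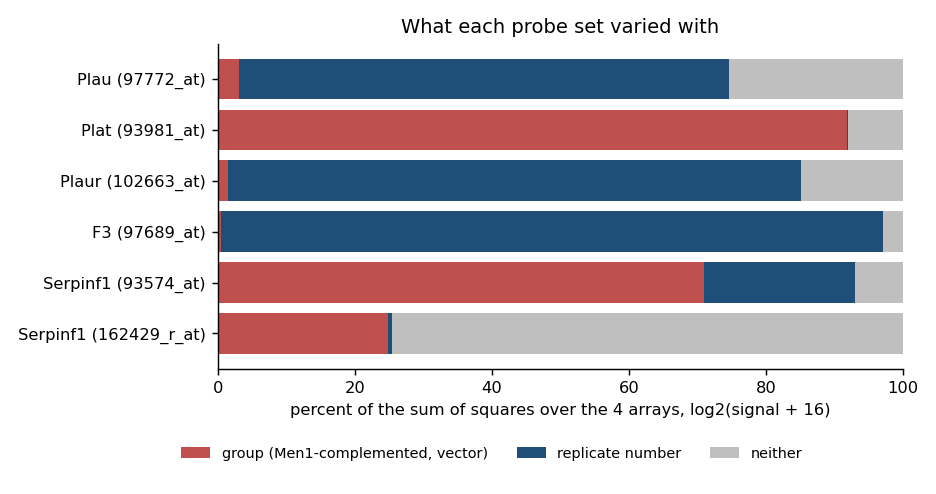
Bars divide the sum of squares of each probe set over the 4 arrays, in percent on the log2(signal + 16) scale, into parts that go with group, with replicate number and with neither. F3 (96.6% with number) and Plat (91.9% with group) lie at the extremes of the 6.

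**Figure D3:**
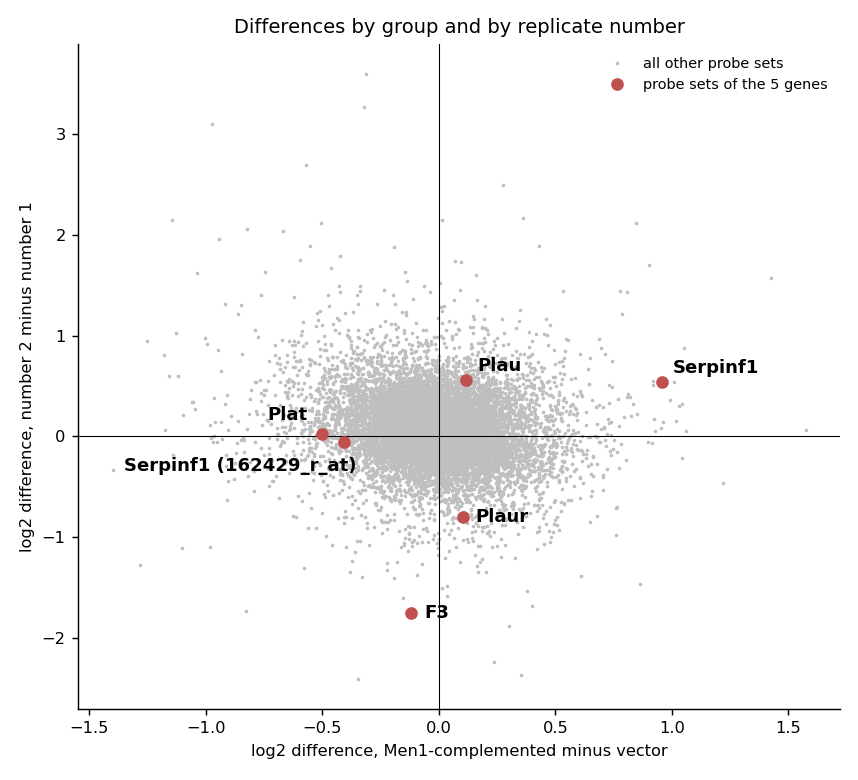
Each point is a probe set, with the log2 difference Men1-complemented minus vector across and number 2 minus number 1 up the page, grey for other probe sets and red for the 6 described here. F3 (-0.12, -1.75) lies far down near the vertical axis, the main Serpinf1 probe set (0.96, 0.54) far to the right, and Plat (-0.50, 0.02) to the left on the horizontal axis.

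Genes with the most similar pattern were found for the main probe set of each gene as those with the smallest Euclidean distance between log2 profiles centred over the 4 arrays, among 10827 other probe sets with 1 symbol. With so few arrays close profiles are plentiful, and the values are a description. For Plaur these were Plekho1 (distance 0.033, r = 1.00), Cdk5rap3 (0.059) and Atf6 (0.062). For Plat they were Ppp2r5a (0.055), B4galt2 (0.060) and a probe set of Gadd45b (0.062), and for Plau they were Apbb1ip (0.017), Grk5 (0.035) and Rnf208 (0.036). F3 had no profile as close, but this distance grows with the spread of a profile. F3 spanned 2.05 on the log2 scale over the 4 arrays, against 1.13 for Plaur, 0.90 for Plau and 0.65 for Plat. The nearest to F3, Tmem45a (0.36, r = 0.99), B3gnt2 (0.36) and Bcl6b (0.39), were at or below the controls on at least 1 array. The same held for the nearest to Serpinf1, which were Sprr1a (0.25, r = 0.98), Mapk8ip1 (0.26) and Erp29 (0.33).

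Other genes of the plasmin system showed no common direction by group. Of 17 listed, 12 were measured, 6 higher and 6 lower with Men1, with a median of 0.0002 against -0.01 over all genes, and 0 passed by limma or were at an unadjusted p under 0.05. Groups did not overlap for 1 of the 12, Plgrkt, a plasminogen receptor (118.2 and 120.4 with Men1, 120.5 and 172.1 with vector), and for 22.1% of all genes. Anxa2, a cell-surface protein that binds Plat and plasminogen, read 2469.5 and 2116.4 with Men1, against 2622.6 and 1623.4 with vector. It was lower on both arrays numbered 2 (-0.45), whereas its partner S100a10 was higher on both in its brighter probe set (0.36). The dimmer S100a10 probe set overlapped by number (0.32), and its groups did not overlap (0.51, SE 0.23). Lrp1, which clears activator and inhibitor complexes, differed by 0.22 (SE 0.25) by group and did not separate by number. Plg, the substrate itself, read 42.2 to 70.1 on its brighter probe set, where number 2 was higher by 0.55, but the dimmer one differed by -0.10.

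Clotting genes were mostly dim. Of 24 measured genes of 27 listed, 16 were at or below the controls on all 4 arrays, among them prothrombin (F2), F10 and all 3 fibrinogen chains. In this list 10 were higher and 14 lower with Men1 (median -0.02), and 0 passed. At an unadjusted p under 0.05 there was 1, where 1.68% of all genes were. Groups did not overlap for 3 of the 24 (12.5%), against 22.1% of all genes. Of these Fga, a fibrinogen chain, was below the controls, and Serpind1, a thrombin inhibitor, was lower with Men1 (12.7 and 8.5, against 14.1 and 33.7 with vector), above the controls on 1 array. The third was Procr, the protein C receptor and the gene at an unadjusted p under 0.05, which read 36.6 and 42.1 with Men1, against 24.8 and 20.4 with vector (0.52, SE 0.18, adjusted p = 1 by limma). F7, the ligand of F3, read 284.3 to 432.1 on 1 probe set and 12.2 to 27.7 on the other, so its level is uncertain. The thrombin receptor F2r was lower on the arrays numbered 2 in its brightest probe set (-0.30) and in another (-0.64), and not in the dimmest (-0.0014). Tfpi, the inhibitor of F3 with factor VII, was below the controls throughout.

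By number, 7 of the 10 measured Plaur partners (70%) did not overlap, 5 of them lower on the arrays numbered 2, where 45.6% of all genes did not overlap, 28.5% being higher and 17.1% lower. Itga5, a chain of the fibronectin receptor, read 319.8 with Men1 and 127.5 with vector on the arrays numbered 2, against 524.4 with Men1 and 731.2 with vector on those numbered 1 (-1.53). That is the array order of Plaur. Egfr, the receptor of epidermal growth factor, was lower on the arrays numbered 2 in its 3 probe sets (-1.10, -0.78 and -1.01), of which the last was above the controls on 1 array. Itgav was lower in its brightest probe set (-0.25) and higher in the other 2 (0.48 and 0.40), so the gene has no settled direction. Itga3 was lower in both of its probe sets (-0.44 and -0.10), with no overlap in either, and Itgb3, also lower, was above the controls on 1 array. Higher were Itgb5 (0.19) and Itgb2, which was below the controls. Itgb1, the chain that pairs with Itga5 and the brightest of the list, overlapped by number in its brighter probe set (0.12). Its other probe set was lower on both arrays numbered 2 (-0.53), so the gene has no settled direction. By group, 7 of these 10 genes were higher and 3 lower (median 0.11), with 0 passing and 0 at an unadjusted p under 0.05 by limma. Itgb1 was the single one whose groups did not overlap (0.20, SE 0.18), where 22.1% of all genes did not. In its other probe set the groups overlapped (0.18, SE 0.33).

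Of 7 measured Serpinf1 partners of 9 listed, 4 were higher and 3 lower with Men1 (median 0.05), and 0 passed. Groups did not overlap for 3 of the 7, against 22.1% of all genes, namely Lrp6, a Wnt co-receptor (0.21, SE 0.20), Pnpla2 and Kdr, a receptor of Vegfa (-0.12, SE 0.17), which was near the controls. The dimmer probe set of Lrp6 differed by -0.08 (SE 0.23), with groups that overlapped. The brightest of the list was Rpsa, a laminin receptor and ribosomal protein, at -0.04 (SE 0.21). Pnpla2, a lipase that binds Serpinf1, read 471.7 and 424.6 with Men1, against 476.5 and 515.1 with vector (-0.14, SE 0.18). Vegfa, whose action on vessels Serpinf1 opposes, differed by 0.05 (SE 0.21), and Thbs2, another secreted inhibitor of vessel growth, by 0.17 (SE 0.55). By number, 4 of the 7 partners (57.1%) did not overlap, against 45.6% of all genes. All 4 were lower on the arrays numbered 2, against 17.1% of all genes. They were Thbs2 (-1.09), Flt1 (-0.80), Rpsa (-0.24) and Vegfa (-0.24). Among 11 other serpins measured of 20 listed, 8 were higher and 3 lower with Men1 (median 0.07), and 0 passed. Serpina3n was the single one whose groups did not overlap, where 22.1% of all genes did not, at 101.5 and 73.6 with Men1 and 70.0 and 33.5 with vector. Serpinh1, the collagen chaperone, differed by 0.07 (SE 0.22).

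Transcription factors of the AP-1, Ets and Egr families were mixed by number. Of 12 measured of 14 listed, 6 were higher and 6 lower on the arrays numbered 2 (median -0.02). Numbers did not overlap for 5 (41.7%), against 45.6% of all genes. Higher on both arrays numbered 2 were 4, against 28.5% of all genes, namely Egr2 (0.73, above the controls on 1 array), Fos (0.70), Jund (0.44) and Fosl2 (0.42). Lower on both was Ets1 (-0.25), whose other probe set differed by 0.16. By group 9 were higher and 3 lower with Men1 (median 0.20), 0 passed, and 5 (41.7%) did not overlap, against 22.1% of all genes. These were Etv4 (0.38, SE 0.21), Ets2 (0.37, SE 0.20), Fosl1 (0.36, SE 0.22) and Junb (0.26, SE 0.17), higher, and Fosb (-0.15, SE 0.18), lower. Other probe sets of these genes gave other sizes, 0.99 (SE 0.25) for Junb, again with groups that did not overlap, and 0.04 for Etv4, with groups that did.

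Some smooth muscle markers had the array order of F3 and Plaur. Their summed signal over 5 measured genes was 5465 with Men1 and 5187 with vector on the arrays numbered 2, against 8932 with Men1 and 11108 with vector on those numbered 1. Lower on both arrays numbered 2 were 3 of the 5, the contractile genes Cnn1 (-2.40), Tagln (-1.27) and Acta2 (-0.51), against 17.1% of all genes. Des overlapped by number (-0.12), and Myh11, which defines mature smooth muscle, was below the controls throughout. Of 12 fibroblast markers 7 were higher on both arrays numbered 2, against 28.5% of all genes, including the matrix genes Postn (2.03) and Dcn (1.40). Among the 7, Postn was above the controls on 2 arrays, Dcn and Col3a1 on 3, and Lum on 1. Pdgfrb was lower on both (-0.46), and Col1a1, the brightest, overlapped (-0.04). The 3' to 5' signal ratio of beta-actin, a measure of RNA integrity, was 1.09 with Men1 and 1.08 with vector on the arrays numbered 2, against 1.18 with Men1 and 1.15 with vector on those numbered 1. For 3 other controls the ratio was higher on both Men1-complemented arrays. It was 0.850 and 0.804 with Men1, against 0.782 and 0.743 with vector, for Gapdh. For the transferrin receptor it was 5.09 and 5 with Men1, against 4.64 and 4.93 with vector, and for pyruvate carboxylase 2.73 and 1.87 with Men1, against 1.70 and 1.72 with vector. What part these markers and ratios have in the differences of F3, Plaur and Plau by number, or of Serpinf1 and Plat by group, was not tested.

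**Figure D4:**
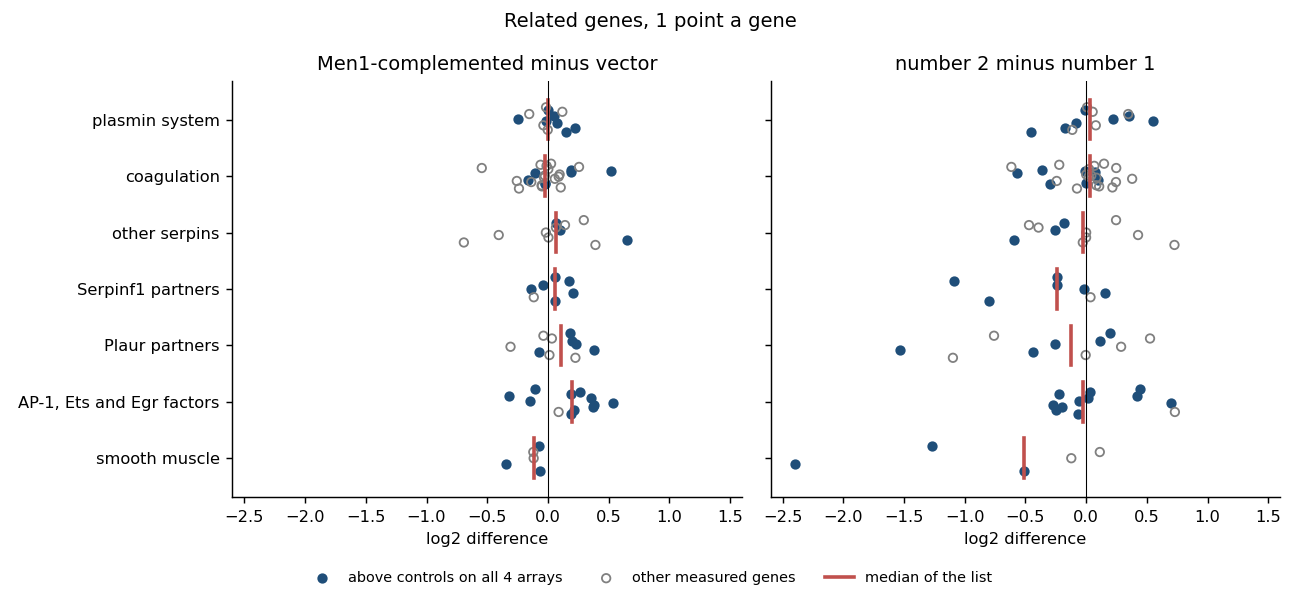
Genes of 7 lists, 1 point a gene at its brightest probe set, with log2 differences by group at left and by replicate number at right, filled where the signal exceeded the controls on all 4 arrays, and red lines for list medians. By group the medians lie between -0.12 and 0.20, and by number smooth muscle markers (-0.51) lie lowest.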

How the data were processed

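RNA of 4 samples was hybridised to Affymetrix arrays. The deposited values are linear signal intensity from MAS5 in Affymetrix Expression Console, as the submitters' processing notes name them, with versions not given in the sources used here. They were used without further normalization. The 66 control probe sets were left out, and 12422 were fitted as log2(signal + 16) with limma 3.58.1 (lmFit, eBayes; R 4.3.3), by group, two-sided, with Benjamini-Hochberg adjustment over all of them. The fit had 2 residual and 2.87 prior degrees of freedom and a median SE of 0.22, and the number of arrays limits its precision. The fit was tested on simulated data.

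Platform annotation gave 1 symbol to 10833 probe sets, several to 396 and none to 1193. Genes in lists were taken by their brightest probe set. Lists were written down from knowledge of the pathways, and names were taken from the brightest members and from those whose arrays did not overlap, up to 4 of each, not all of which are named. The genes, lists and tests were chosen with earlier results of these data known. Alternatives were quantile normalization, pseudocounts of 1 and 64, no dim probe sets, control probe sets kept, replicate number as a block, and each array left out. What replicate numbers mark is not stated, so differences by number carry no test.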

Additional observations from a re-analysis of the deposited data

How the results depend on the processing

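By limma 0 probe sets passed in each of the settings run. The count at an unadjusted p under 0.05, 233 as reported, was 82 of 7774 without dim probe sets and ranged over 121 to 1031 without single arrays, being 1031 without vector array 1. Without single arrays, groups did not overlap for 49.98% to 72.4% of probe sets and numbers for 68.1% to 77.6%, since a lone array overlaps less often.

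Of 60 group differences of the 6 probe sets over 10 settings, 55 kept their direction, and of 54 differences by number over 9 settings, 49 did. All that turned came from leaving out single arrays. By group these ranged from -0.33 to 0.57 for Plau, -0.46 to 0.67 for Plaur and -1.14 to 0.91 for F3. By number they ranged from -0.30 to 0.35 for Plat, from -0.095 to 1.17 for the main and from -0.62 to 0.50 for the dim Serpinf1 probe set. Such fits take the spread of a single remaining array from the other group. F3 by number stayed between -1.96 and -1.54, and Plat by group between -0.59 and -0.42. By group the main Serpinf1 probe set stayed between 0.54 and 1.38, and the dim one, in the opposite direction, between -0.79 and -0.025. With a pseudocount of 64, Plau differed by 0.29 by number, where 0.56 was reported.

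Deviations from the group means correlated between arrays of the same number (r = 0.26 over 12422 probe sets), but with 2 pairs this does not show that the numbers pair the samples. With replicate number as a block 0 probe sets passed and 297 were at an unadjusted p under 0.05. The SE of the group difference was then 0.24 for F3, 0.24 for Plaur and 0.23 for the main Serpinf1 probe set, at the same differences. It fell to 0.24 for Plau too, and rose from 0.18 to 0.20 for Plat and from 0.36 to 0.37 for the dim Serpinf1 probe set.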
